A study of Mus musculus with 10 samples.

Results

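Small nucleolar RNAs were examined in mouse dorsal telencephalon at embryonic day 12, the tissue from which the cerebral cortex forms. The members were the symbols that start with Snord (box C/D) or Snora (box H/ACA) followed by digits and that lay above 0 FPKM, a fragment count scaled by transcript length and library size, in at least 5 of 10 libraries. They were 32 of the 114 symbols that match this name and of 38803 symbols in all. Box C/D had 12 members of 76 symbols and box H/ACA had 20 of 38. The members were chosen by the measured FPKM in these same libraries, so the number of libraries above 0 is a description of the members and is not tested. The name pattern matched no upper-case symbol and no Scarna symbol, so 7 and 11 further rows of those kinds were left out.

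The 5 mutant libraries carried Rnu11Flx/Flx with Emx1-Cre+/- and the 5 control libraries Rnu11WT/Flx with Emx1-cre+/-, on a mixed background of C57/Bl6 and 129 SvJ. Rnu11 encodes U11, an RNA of the minor spliceosome, and Emx1-Cre recombines floxed alleles in dorsal telencephalic progenitors and the cells that descend from them. Both genotypes carried Cre and at least 1 floxed Rnu11 copy, so each difference is relative to heterozygous controls. Cells outside this lineage keep their alleles. Separate embryos per library are not stated, so the p-values cover the spread between these libraries, which may be technical. In such bulk tissue, fewer cells of a type and less RNA per cell cannot be told apart.

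Rnu11 averaged 892.3 ± 457.6 FPKM in mutants and 2283 ± 352.5 FPKM in controls (SD, n = 5 each), with no overlap between the groups (exact two-sided permutation test, p = 0.00794). The mutant mean was 39.1% of the control mean. Between 13092 and 14229 genes reached 1 FPKM per library, and neither labels nor files state the fragments sequenced. All 8 dorsal telencephalic markers reached 1 FPKM in every library, with summed levels of 226.8 to 287.0 FPKM in mutants and 138.1 to 238.3 FPKM in controls. Summed ventral telencephalic markers lay at 1.15 to 12.8 FPKM in mutants and 1.39 to 41.5 FPKM in controls, and Gsx2 and Nkx2-1 were at 0 in some libraries. Erythroid markers summed to 3950 to 8467 FPKM in mutants and 3292 to 7950 FPKM in controls, and microglial markers to 22.7 to 72.1 FPKM in mutants and 14.6 to 36.2 FPKM in controls. Choroid plexus markers summed to 134.5 to 372.7 FPKM in mutants and 191.8 to 384.2 FPKM in controls. Mesenchymal and meningeal markers lay at 63.3 to 155.9 FPKM in mutants and 54.0 to 130.3 FPKM in controls. For endothelial markers the sums were 28.4 to 47.2 FPKM in mutants and 22.6 to 37.8 FPKM in controls. The part of these other cells in the levels below was not tested.

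Mutant 4, mutant 5 and control 5 stood apart from the other 7 libraries. Rnu12, the U12 RNA of the minor spliceosome, lay at 486.9, 573.1 and 688.3 FPKM in these 3 libraries and at 5.91 to 33.8 FPKM in the rest. This split crosses genotype and was drawn from the data, so it is described here without a test. Mean Rnu11 in mutants was 0.247 times that in controls among the 7 libraries with low Rnu12. Among the 3 libraries with high Rnu12, which hold a single control, it was 0.610 times. Whether RNA preparation, sequencing or tissue differed between the sets was not tested.

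Small nucleolar RNAs are short, stable RNAs of the nucleolus that act inside ribonucleoproteins. Box C/D RNAs bind fibrillarin, Nop56, Nop58 and Snu13 and guide methylation of ribose in ribosomal and small nuclear RNAs. Box H/ACA RNAs bind dyskerin, Nop10, Nhp2 and Gar1 and guide the change of uridine to pseudouridine. A few of either class act in the cleavage of the ribosomal RNA precursor in place of, or beside, modification. Most vertebrate small nucleolar RNAs are cut out of spliced introns of host genes, many of which encode ribosomal proteins or act in translation.

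The following sequences (GENCODE M21 transcripts, GRCm38, 5′ to 3′, written with T) show the features that name the classes in the box C/D members that the results below turn on. Capitals mark TGATGA within the first 40 bases, a form of box C, and CTGA within the last 20 bases, box D. Snord15b was among the most abundant members of its class. Snord35a and Snord35b are the shortest pair of related members and were at 0 in several libraries. Snord32a and Snord33, which are not members, were among the highest small nucleolar RNAs of 3 libraries and at 0 in the other 7.
Snord15b: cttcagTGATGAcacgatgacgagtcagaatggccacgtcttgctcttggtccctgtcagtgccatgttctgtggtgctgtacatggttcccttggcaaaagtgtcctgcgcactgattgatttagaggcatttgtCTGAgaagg
Snord35a: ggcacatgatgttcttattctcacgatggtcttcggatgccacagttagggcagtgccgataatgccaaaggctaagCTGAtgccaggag
Snord35b: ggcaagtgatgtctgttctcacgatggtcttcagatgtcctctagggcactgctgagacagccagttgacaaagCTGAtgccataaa
Snord32a: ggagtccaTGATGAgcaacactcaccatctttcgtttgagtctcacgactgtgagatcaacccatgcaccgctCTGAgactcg
Snord33: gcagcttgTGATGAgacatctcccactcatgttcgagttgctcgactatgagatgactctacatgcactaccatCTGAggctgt

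The next sequences are box H/ACA members, with ACA within the last 10 bases in capitals. Snora73a and Snora73b were 2 of the most abundant members and are near-identical copies. Snora78 lies in a host gene that had a small unadjusted p. Snora24 had the smallest p among the members.
Snora73a: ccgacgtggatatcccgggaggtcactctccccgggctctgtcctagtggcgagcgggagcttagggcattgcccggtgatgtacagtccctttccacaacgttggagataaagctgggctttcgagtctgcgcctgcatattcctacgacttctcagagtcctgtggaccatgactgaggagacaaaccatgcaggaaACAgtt
Snora73b: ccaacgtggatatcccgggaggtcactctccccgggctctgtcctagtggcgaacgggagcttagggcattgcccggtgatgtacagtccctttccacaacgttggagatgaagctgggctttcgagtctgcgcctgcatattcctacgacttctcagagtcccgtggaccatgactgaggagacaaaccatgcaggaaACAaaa
Snora78: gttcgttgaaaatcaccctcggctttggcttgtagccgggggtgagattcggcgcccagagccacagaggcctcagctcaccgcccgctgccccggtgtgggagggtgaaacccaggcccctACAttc
Snora24: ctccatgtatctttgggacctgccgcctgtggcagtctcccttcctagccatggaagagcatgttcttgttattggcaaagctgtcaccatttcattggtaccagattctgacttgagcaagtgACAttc

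CTGA near the end was found in 12 of 12 box C/D members and in 74 of all 76 box C/D symbols (97.4%), against 3 of 20 box H/ACA members. TGATGA near the start was found in 8 of 12 box C/D members and in 51 of the 76 symbols (67.1%), against 0 of 20 box H/ACA members. ACA near the end was found in 19 of 20 box H/ACA members and 36 of all 38 box H/ACA symbols (94.7%), against 2 of 12 box C/D members. Only the given strand and these exact letters were searched. Snord35a and Snord35b are examples without the exact TGATGA, and Snora81 is the box H/ACA member without ACA in that window.

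Length went with detection. The 76 box C/D symbols had a median annotated length of 80.5 bases and the 38 box H/ACA symbols of 132 bases. Of 36 symbols of up to 79 bases, all of them box C/D, 34 were at 0 FPKM in every library and 0 were members. Of 29 symbols of 80 to 99 bases, also all box C/D, 10 were at 0 throughout and 3 were members. From 100 bases upward, 9 of 11 box C/D symbols and 20 of 38 box H/ACA symbols were members. The shortest symbol above 0 in any library had 77 bases, and the shortest member 87 bases. Spearman's rho between length and the number of libraries above 0 was 0.76 over the 114 symbols, 0.71 over the box C/D symbols and 0.40 over the box H/ACA symbols. These points share the same libraries, and the rho values are descriptions. A symbol at 0 is thus listed at 0 and is not shown to be absent from the tissue.

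**Figure D1:**
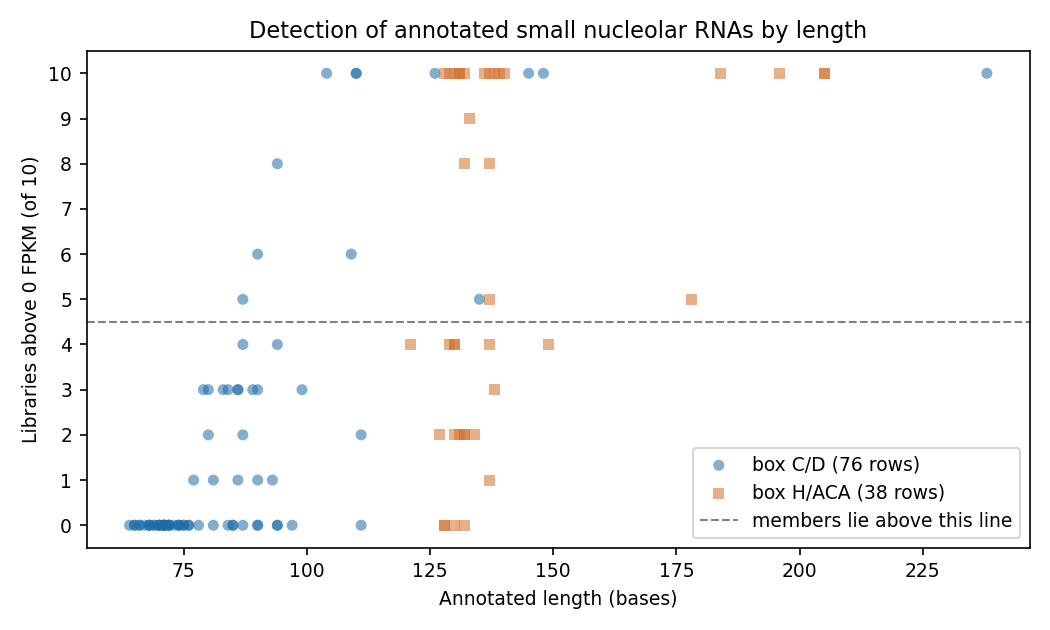
Annotated length in bases (x axis) against the number of libraries above 0 FPKM, of 10 (y axis), for 76 box C/D symbols (circles) and 38 box H/ACA symbols (squares). Members lie above the dashed line, and 34 of the 36 symbols of up to 79 bases sit at 0 libraries.

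Of the 114 symbols, 22 lay above 0 in all 10 libraries, 7 of them box C/D and 15 box H/ACA. A further 33 were above 0 in 1 to 4 libraries, and 49 in none, 45 box C/D and 4 box H/ACA. At the limit of the rule, 4 members were above 0 in exactly 5 libraries, with means over the 10 libraries of 3.72 FPKM for Snora70, 8.84 FPKM for Snora81, 19.5 FPKM for Snord118 and 108.2 FPKM for Snord35b. Just outside it, 8 symbols were above 0 in exactly 4 libraries, among them Snora62 at a mean of 7.03 FPKM, Snora26 at 11.2 FPKM and Snord21 at 84.0 FPKM. Snord64, Snord107, Snord116l1 and Snord116l2, from imprinted regions known for small nucleolar RNAs of neurons, were listed at 0 in all 10 libraries.

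The box C/D members summed to 11064, 12700, 8476, 14728 and 22577 FPKM in mutants 1 to 5 and to 8008, 14525, 17517, 6837 and 13956 FPKM in controls 1 to 5. The groups overlapped throughout, with the highest sum in mutant 5 and the lowest in control 4. The means were 13909 ± 5359 FPKM in mutants and 12169 ± 4558 FPKM in controls (SD, n = 5 each), a ratio of 1.14. The box H/ACA members summed to 19962, 26660, 17357, 20761 and 29517 FPKM in mutants and to 22357, 29356, 29392, 12871 and 17199 FPKM in controls. These groups overlapped too, with means of 22851 ± 5046 FPKM in mutants and 22235 ± 7331 FPKM in controls (SD, n = 5 each), a ratio of 1.03. Among the 7 libraries with low Rnu12 the ratios were 0.917 for box C/D and 0.908 for box H/ACA, the other side of 1. Among the 3 libraries with high Rnu12 they were 1.34 and 1.46, with a single control. Together the 32 members held 0.896 to 1.96% of the summed FPKM of a library.

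The box C/D sum divided by the box H/ACA sum was 0.554, 0.476, 0.488, 0.709 and 0.765 in mutants 1 to 5 and 0.358, 0.495, 0.596, 0.531 and 0.811 in controls 1 to 5. The genotypes overlapped, while the 3 libraries with high Rnu12, at 0.709 to 0.811, lay above the other 7, at 0.358 to 0.596. The box C/D sum includes Snord35a, Snord35b and Snord118, which met the rule only with the help of these 3 libraries. Snord35a and Snord35b together gave 779.1, 2048 and 1783 FPKM in mutant 4, mutant 5 and control 5 and 0 to 1360 FPKM in the others. The choice of members thus favours this order, which is no independent result. Of the 22 members above 0 everywhere, mutant 5 was the highest library for 13 and control 4 the lowest for 11.

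**Figure D2:**
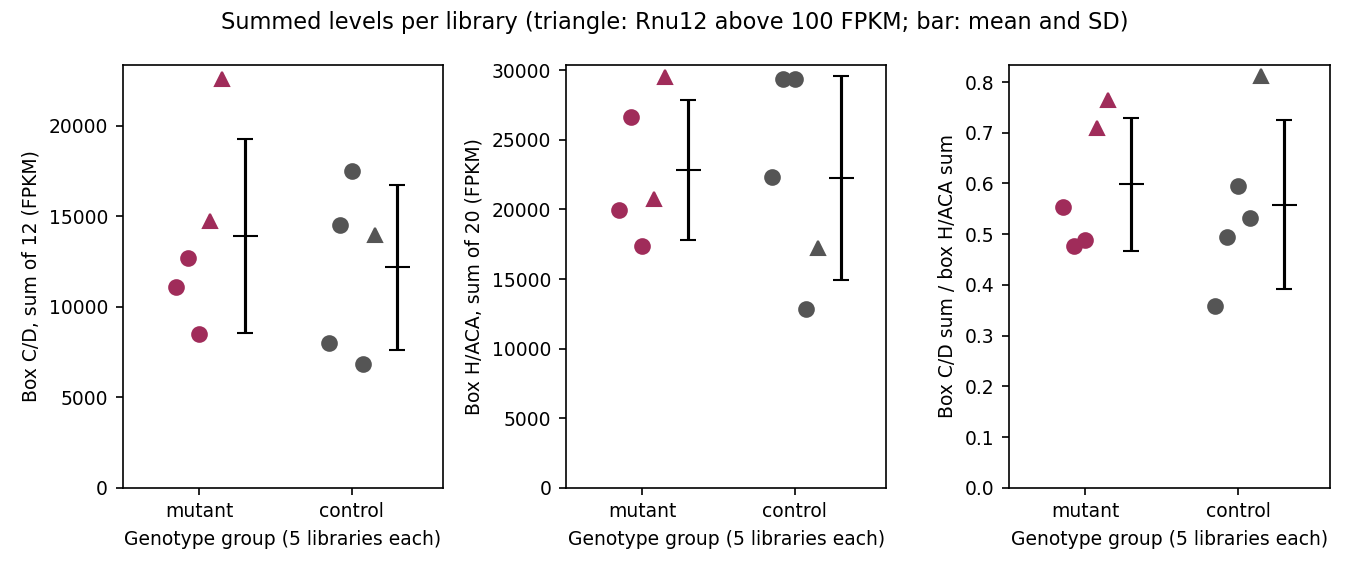
Summed FPKM of the 12 box C/D members (left), of the 20 box H/ACA members (middle) and the quotient of these sums (right) in each mutant and control library, with mean and SD of 5 libraries. Triangles mark libraries with Rnu12 above 100 FPKM, whose quotients of 0.709 to 0.811 sit above those of the other 7 libraries in both genotypes. The choice of members favours this order, since Snord35a, Snord35b and Snord118 met the rule only with the help of those libraries.

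A pair of RNAs held a large share of each sum. FPKM divides by transcript length, but the program and the length it used are not stated, so the order of levels between genes is approximate. Among box C/D members, Snord13 and Snord15b together held 56.0 to 77.1% of the class sum in mutants and 48.8 to 73.6% in controls. Snora73a and Snora73b held 42.8 to 60.0% of the box H/ACA sum in mutants and 49.0 to 59.9% in controls.

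**Figure D3:**
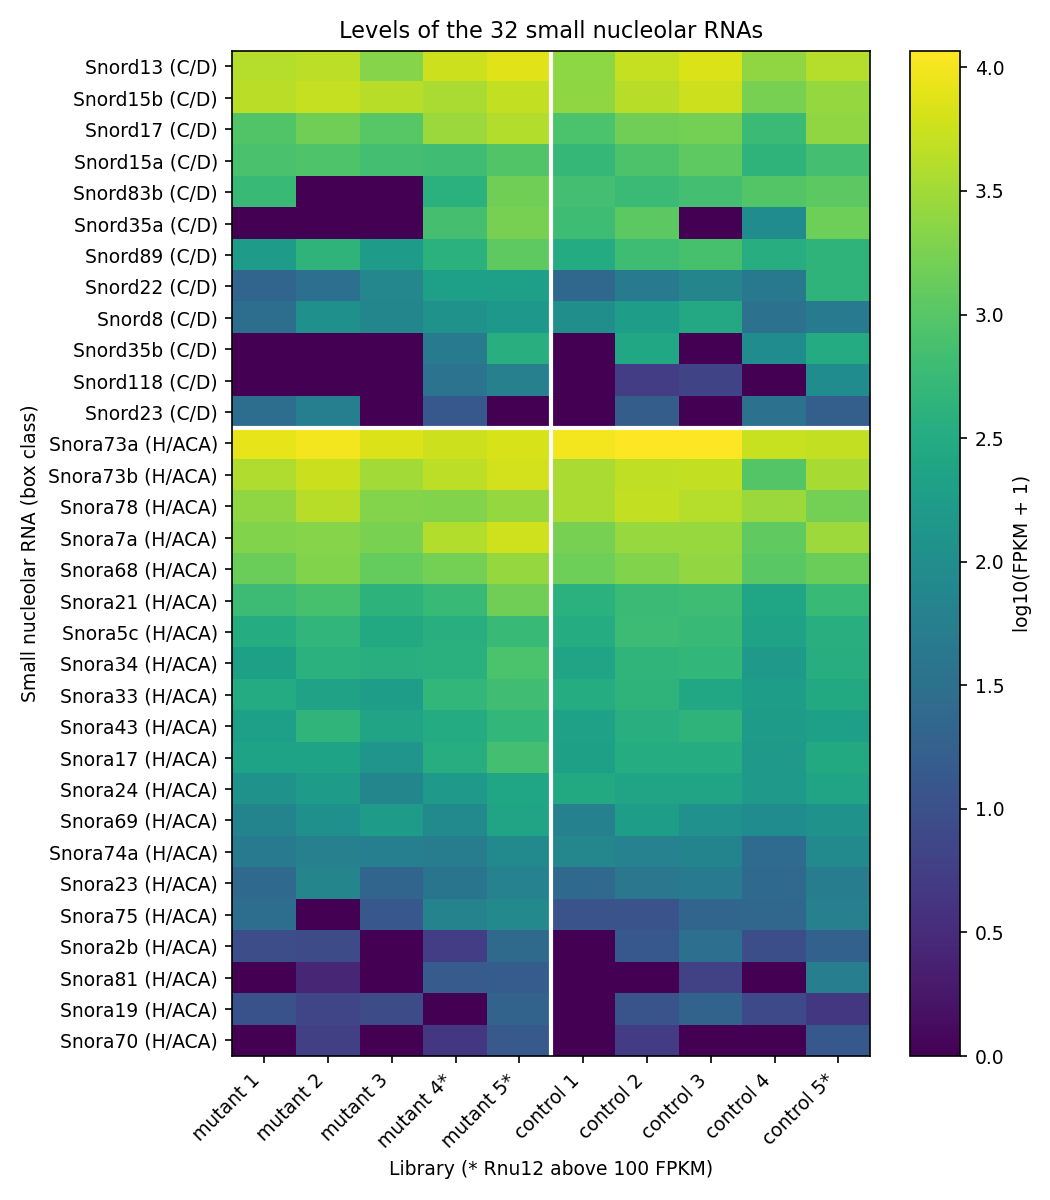
Level of each of the 32 members in each library, as log10(FPKM + 1), with box C/D above and box H/ACA below the horizontal line and mutants left of controls. Asterisks mark libraries with Rnu12 above 100 FPKM. The darkest cells, at 0 FPKM, fall mainly among the shorter box C/D members and the lowest box H/ACA members, and Snord118 is at 0 in mutants 1 to 3.

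Members known to act in ribosomal RNA maturation outside plain modification came from both classes. Snord13, or U13, has no host on its strand in the annotation and is known from human cells to assist acetylation of 18S ribosomal RNA. It measured 4173, 4578, 2140, 5778 and 7697 FPKM in mutants 1 to 5 and 2363, 5055, 7142, 2506 and 4180 FPKM in controls 1 to 5. The ranges overlapped, with the lowest value in mutant 3 and the highest in mutant 5, and the log2 difference was 0.20 (SE 0.38, limma adjusted p = 0.885). Among the 7 libraries with low Rnu12 the difference was -0.15.

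Snord118, or U8, which in frog oocytes is needed for maturation of 5.8S and 28S ribosomal RNA, lies on chromosome 11 from 69073427 to 69073561 with no host in the annotation. It was listed at 0 in mutants 1 to 3 and measured 34.1 FPKM in mutant 4 and 58.1 FPKM in mutant 5. In controls it was at 0 in libraries 1 and 4 and measured 4.53, 5.91 and 92.6 FPKM in libraries 2, 3 and 5. The 3 libraries with high Rnu12 had the highest values, and without them Snord118 would not have met the rule for members.

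Snord22, or U22, needed in frog oocytes for 18S maturation, lies on chromosome 19 from 8725866 to 8725991 over an exon of its host Snhg1, a long non-coding RNA. It measured 20.1, 29.6, 76.7, 193.4 and 197.1 FPKM in mutants 1 to 5 and 22.7, 46.2, 70.6, 43.0 and 447.6 FPKM in controls 1 to 5. Mutant 4, mutant 5 and control 5 were again the 3 highest, with a mean 6.33 times that of the other 7 libraries. The genotype difference was 0.06 (SE 0.96, limma adjusted p = 0.990). Its host Snhg1 averaged 15.5 ± 3.11 FPKM in mutants and 15.4 ± 4.38 FPKM in controls (SD, n = 5 each). Rows of U14, another RNA of 18S maturation, fell outside the rule. Snord14c, Snord14d and Snord14e were above 0 in mutant 4, mutant 5 and control 5 and in no other library. Snord14a differed, at 87.1 FPKM in mutant 5, 45.3 FPKM in control 2 and 0 in all other libraries.

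Snora73a and Snora73b, the U17 RNAs of 18S processing, are both 205 bases long and identical at 198 of 205 positions (96.6%). How reads were split between such copies is not stated, so each level is uncertain. They lie on chromosome 4 from 132352775 to 132352979 and from 132352322 to 132352526, inside Snhg3 and an intron of Rcc1. The second begins 82109 bases beyond the end of Rnu11. Snora73a measured 8193, 9833, 7135, 5682 and 6579 FPKM in mutants 1 to 5 and 9846, 11452, 11674, 5385 and 4956 FPKM in controls 1 to 5. Its 3 highest values were in controls 1 to 3, yet controls 4 and 5 were the lowest of all, and the genotype difference was -0.14 (SE 0.28, limma adjusted p = 0.899). Snora73b measured 3776, 5524, 3132, 4614 and 6050 FPKM in mutants and 3537, 4842, 4977, 963.3 and 3476 FPKM in controls. Its ranges overlapped, with control 4 far below the rest, and the difference was 0.53 (SE 0.41, limma adjusted p = 0.716).

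The sum of these copies was 11969, 15356, 10267, 10296 and 12629 FPKM in mutants 1 to 5. In controls 1 to 5 it was 13383, 16294, 16651, 6348 and 8432 FPKM. This sum does not depend on the split between the copies if each shared fragment was counted once, which is not stated. The mutants lay inside the range of the controls. The quotient of Snora73a over Snora73b was 1.09 to 2.28 in mutants and 1.43 to 5.59 in controls, and its lowest values, 1.09, 1.23 and 1.43, were those of mutant 5, mutant 4 and control 5.

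Among box C/D guides of ribose methylation, Snord15a and Snord15b, the U15 guides of 28S ribosomal RNA, share the host Rps3, a protein of the small ribosomal subunit. Snord15b measured 4358, 5038, 4272, 3547 and 4935 FPKM in mutants 1 to 5 and 2490, 4256, 5748, 1713 and 2630 FPKM in controls 1 to 5. The mutants lay close together and within the wider range of the controls, and the difference was 0.52 (SE 0.29, limma adjusted p = 0.624). Snord15a averaged 795.1 ± 113.3 FPKM in mutants and 738.6 ± 285.5 FPKM in controls (SD, n = 5 each), a difference of 0.18 (SE 0.24, limma adjusted p = 0.839). Snord15b was 5.37 to 5.93 times as high as Snord15a in mutants and 3.69 to 4.96 times in controls, on the FPKM scale. These quotients did not overlap between genotypes and were noticed after their values were seen, so they carry no test. The copies are 63.2% identical. Their host Rps3 averaged 669.2 ± 74.6 FPKM in mutants and 790.0 ± 144.3 FPKM in controls (SD, n = 5 each), a difference of -0.23 (SE 0.15, limma adjusted p = 0.682).

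Snord17, a 238-base guide in an intron of the sorting nexin gene Snx5, measured 916.3, 1549, 1018, 2817 and 3906 FPKM in mutants 1 to 5 and 827.8, 1525, 1642, 581.7 and 2486 FPKM in controls 1 to 5. The genotypes overlapped, with a difference of 0.48 (SE 0.49, limma adjusted p = 0.789). The 3 libraries with high Rnu12 exceeded all others and averaged 2.67 times their mean. Snx5 itself averaged 105.7 ± 2.62 FPKM in mutants and 100.1 ± 16.7 FPKM in controls (SD, n = 5 each).

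Snord35a and Snord35b are the U35 guides of 28S ribosomal RNA, and Snord35a lies in an intron of the ribosomal protein gene Rpl13a. Snord35a was listed at 0 in mutants 1 to 3 and measured 730.4 and 1699 FPKM in mutants 4 and 5. In controls it measured 640.9, 1088, 94.6 and 1464 FPKM in libraries 1, 2, 4 and 5 and was listed at 0 in library 3. Snord35b was listed at 0 in mutants 1 to 3 and controls 1 and 3, and measured 48.7 and 348.6 FPKM in mutants 4 and 5 and 272.0, 94.6 and 318.3 FPKM in controls 2, 4 and 5. Either gene was at 0 in libraries of both genotypes, and the differences were -3.25 (SE 3.097) and -1.78 (SE 2.55), with limma adjusted p of 0.779 and 0.853.

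Snord83b, in an intron of the ribosomal protein gene Rpl3, had the lowest log2 difference of all members. It measured 579.6, 0, 0, 389.6 and 1525 FPKM in mutants 1 to 5 and 721.0, 589.4, 709.4, 945.8 and 1114 FPKM in controls 1 to 5. Both zeros were in mutants, while the highest value was in mutant 5, so the groups overlapped, and the difference was -3.96 (SE 2.30, limma adjusted p = 0.649). Its size depends on the pseudocount added to the zeros, at -5.29 with 0.1 and -6.62 with 0.01, and it was -2.55 without mutant 2 or without mutant 3. In the libraries with low Rnu12 it was -6.45 (limma adjusted p = 0.257). The mutant mean was 0.611 times the control mean. Rpl3 averaged 428.1 ± 36.0 FPKM in mutants and 456.9 ± 30.2 FPKM in controls (SD, n = 5 each).

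Snord89, in an intron of the annotated gene Gm15832, measured 173.9, 441.3, 178.3, 401.7 and 1147 FPKM in mutants 1 to 5 and 320.4, 634.7, 756.7, 346.8 and 445.6 FPKM in controls 1 to 5. Mutants held the highest value and the lowest, and the difference was -0.38 (SE 0.50, limma adjusted p = 0.838). Snord8, in an intron of the chromatin remodeller Chd8, measured 29.0 to 145.2 FPKM in mutants and 31.5 to 283.8 FPKM in controls. Snord23, in an intron of the gene the files call Gltscr2 (Nop53), was at 0 in mutants 3 and 5 and controls 1 and 3 and otherwise at 12.2 to 55.2 FPKM in mutants and 15.1 to 31.5 FPKM in controls.

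The levels of these shorter RNAs moved in whole steps. Within each library, Snord23, Snord8 and Snord89, of 109 to 110 bases, were whole multiples of a common step of 12.2 to 106.8 FPKM, to within 0.0001% of the value. Snord23 was 0 or 1 step, Snord8 was 1 to 12 steps and Snord89 was 3 to 79 steps. Snord35a, Snord35b and Snord83b, of 87 to 94 bases, shared a step of 31.8 to 94.6 FPKM in 6 libraries, although their lengths differ. In the other libraries at most 1 of them was above 0, so no common step was sought. In control 4, Snord35a and Snord35b were each at a single step and Snord83b at 10. A step is the largest value that divides the levels, so a multiple is the smallest number of fragments that could give that level if a fragment is counted whole. A level of 31.5 FPKM, as Snord8 had in control 4, may therefore rest on a single fragment.

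Among box H/ACA guides of pseudouridine, Snora24, a guide for 18S ribosomal RNA that lies over an exon of the long non-coding RNA gene Snhg8, had the smallest p of all members. It measured 115.9, 174.7, 71.3, 151.5 and 255.2 FPKM in mutants 1 to 5 and 297.6, 232.4, 236.5, 153.7 and 233.4 FPKM in controls 1 to 5. Of the mutants, 3 lay below every control, while mutant 5 was above 4 of the 5 controls. The difference was -0.67 (SE 0.30, unadjusted p = 0.0427), which did not pass the threshold over all genes (limma adjusted p = 0.564, and 0.190 to 0.884 under the alternatives). Without mutant 3 the difference was -0.43 (limma adjusted p = 0.792). The unadjusted limma p was above 0.05 without mutant 1, 3 or 4 or without control 1, 2, 3 or 5 (0.0593 to 0.0971). It stayed under 0.05 without mutant 2, mutant 5 or control 4 (0.00529 to 0.0400). In the 7 libraries with low Rnu12 the means were 120.6 FPKM in mutants and 230.0 FPKM in controls, a difference of -0.98 (limma adjusted p = 0.190).

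Snora78, in an intron of Snhg9 with the ribosomal protein gene Rps2 on the opposite strand, measured 2446, 4192, 2051, 1966 and 2689 FPKM in mutants 1 to 5 and 3605, 4913, 4154, 2814 and 1671 FPKM in controls 1 to 5. Controls held both the highest value and the lowest, and the difference was -0.33 (SE 0.30, limma adjusted p = 0.766). The use of strand in counting is not stated, so reads of Snora78 and Rps2 may not be told apart.

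Snora7a, over an exon of the ribosomal protein gene Rpl32, measured 1971, 2151, 1773, 3948 and 5978 FPKM in mutants 1 to 5 and 1719, 2781, 2775, 1174 and 2976 FPKM in controls 1 to 5. The genotypes overlapped, with a difference of 0.39 (SE 0.37, limma adjusted p = 0.777), which was -0.02 among the libraries with low Rnu12. The 3 libraries with high Rnu12 exceeded the other 7, with a mean 2.10 times theirs. Snora68, a guide for 28S ribosomal RNA, averaged 1809.5 ± 555.1 FPKM in mutants and 1700.4 ± 579.3 FPKM in controls (SD, n = 5 each), a difference of 0.11 (SE 0.26, limma adjusted p = 0.922).

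Snora21, a guide for 28S ribosomal RNA in an intron of Rpl23, measured 604.5, 772.3, 428.0, 566.6 and 1530 FPKM in mutants 1 to 5 and 400.6, 593.5, 626.7, 249.4 and 567.2 FPKM in controls 1 to 5. It had the highest log2 difference of all members, 0.61 (SE 0.35, limma adjusted p = 0.629), with overlapping groups and mutant 5 far above the rest. Without mutant 5 the difference was 0.33, and without control 4 it was 0.38. Snora43, with no host in the annotation, averaged 338.6 ± 128.9 FPKM in mutants and 279.3 ± 117.3 FPKM in controls (SD, n = 5 each), a difference of 0.29 (SE 0.32, limma adjusted p = 0.808). Snora2b, over an exon of Kansl2, a subunit of a chromatin complex, measured 8.28, 7.88, 0, 4.43 and 24.2 FPKM in mutants and 0, 12.4, 29.6, 8.60 and 17.4 FPKM in controls. Its difference was -0.53 (SE 1.12, limma adjusted p = 0.907) and 0.14 without mutant 3.

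Snora5c in Tbrg4, Snora34 in Kansl2, Snora33 in Rps12 and Snora17 averaged 326.3 to 432.6 FPKM in mutants and 261.5 to 420.8 FPKM in controls, with differences of -0.02 to 0.33. Snora69 in Rpl39, Snora74a and Snora23 in Ipo7 averaged 42.5 to 134.0 FPKM in mutants and 37.0 to 115.2 FPKM in controls, with differences of -0.03 to 0.16. Snora75 in the nucleolin gene Ncl measured 29.0, 0, 11.9, 64.9 and 81.7 FPKM in mutants and 10.01, 10.07, 20.3, 21.0 and 57.3 FPKM in controls, and Snora81 in Eif4a2, a translation initiation factor, 0, 1.75, 0, 13.9 and 14.3 FPKM in mutants and 0, 0, 5.06, 0 and 53.4 FPKM in controls. In either, mutant 4, mutant 5 and control 5 were the 3 highest libraries, which for Snora81 were also needed to meet the rule for members. Snora19 in Eif3a and Snora70 in Rpl10 stayed at or below 19.0 FPKM in every library.

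Across the fit of all genes, 0 of 32 members passed the threshold of an adjusted p of 0.05, 0 of 12 box C/D and 0 of 20 box H/ACA, where 21 of 13522 tested genes (0.155%) passed, 12 of them higher in mutants (0.0887%) and 9 lower (0.0666%). Of the members, 1 had an unadjusted p under 0.05, against 8.76% of tested genes, and 0 had groups that did not overlap, against 1.9%. The log2 difference was above 0 in 6 of 12 box C/D members and 13 of 20 box H/ACA members, and in 75.7% of all tested genes. The median difference was -0.05 for box C/D, 0.14 for box H/ACA and 0.11 for all tested genes. The order of the classes turned among members above 0 in every library, with medians of 0.18 for box C/D and 0.15 for box H/ACA. The box H/ACA median was -0.088 among the libraries with low Rnu12 and -0.017 with the library set as a term. All 32 members passed the filter on low values, which asked for 1 FPKM in at least 5 libraries.

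The error of these differences was large. The median SE was 0.82 on the log2 scale for box C/D members, 0.37 for box H/ACA members and 0.15 for all tested genes. Even among the 22 members above 0 in every library, the 95% intervals ran from as low as -2.13 to as high as 2.24, both in Snord22. A p above the threshold therefore does not show that the levels were equal between genotypes. Under each of 20 other settings, 0 members passed.

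**Figure D4:**
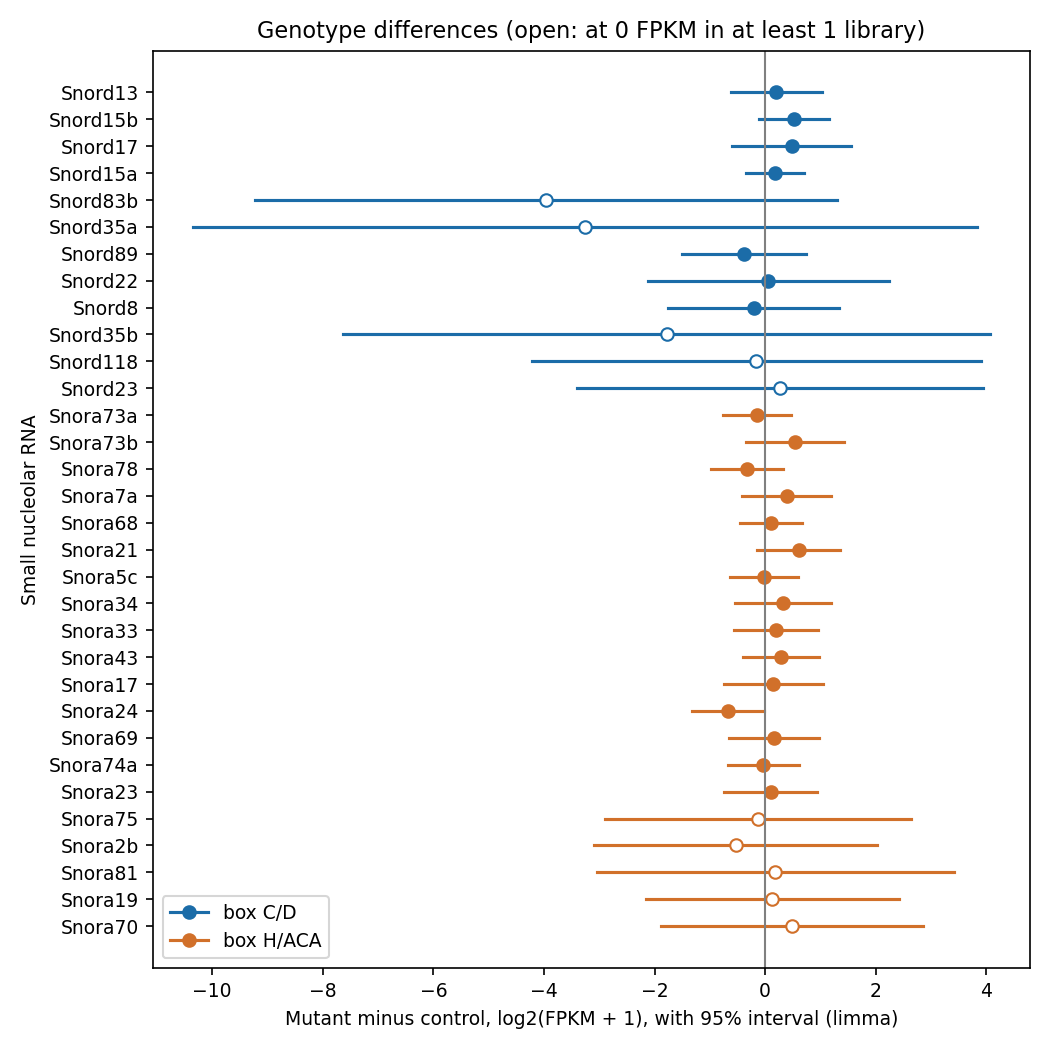
Difference between mutants and controls for each of the 32 members on the log2(FPKM + 1) scale (x axis), with its 95% interval from limma, 5 libraries per group. Open circles mark members at 0 FPKM in at least 1 library. The interval of Snora24 alone leaves out 0, before adjustment, and Snord83b, Snord35a and Snord35b have intervals over 10 log2 units wide.

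The library sets are set side by side as a description. The choice of members favours higher levels in mutant 4, mutant 5 and control 5 for 5 of them. Snord118, Snora81, Snora70 and Snord35b were above 0 in those 3 libraries and in 2 of the other 7. Snord35a was above 0 in those 3 and in 3 of the other 7. These 5 met the rule only with the help of that set. Snord23 also needed mutant 4 or control 5 to meet the rule, but its mean in the 3 libraries was 0.501 times that of the other 7. Of the 22 members above 0 in every library, 17 had a higher mean in mutant 4, mutant 5 and control 5 than in the other 7 libraries, 4 of 7 box C/D and 13 of 15 box H/ACA, against 58.1% of all tested genes. In 3 of these 22, Snord17, Snord22 and Snora7a, the 3 libraries were all above the other 7, a share near the 15.5% of all tested genes placed in this way. The median quotient of set means was 1.47 for the box C/D members above 0 in every library, 1.28 for such box H/ACA members and 1.05 for all tested genes. Snora73a and Snora78 ran the other way, with means 0.632 and 0.611 times those of the other 7 libraries. Other short non-coding RNAs went both ways, with quotients of 2.93 for Rny1, 1.16 for Rmrp and 1.08 for Rnu11. Those of Rpph1, Terc and Rn7sk were 0.313, 0.420 and 0.598.

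**Figure D5:**
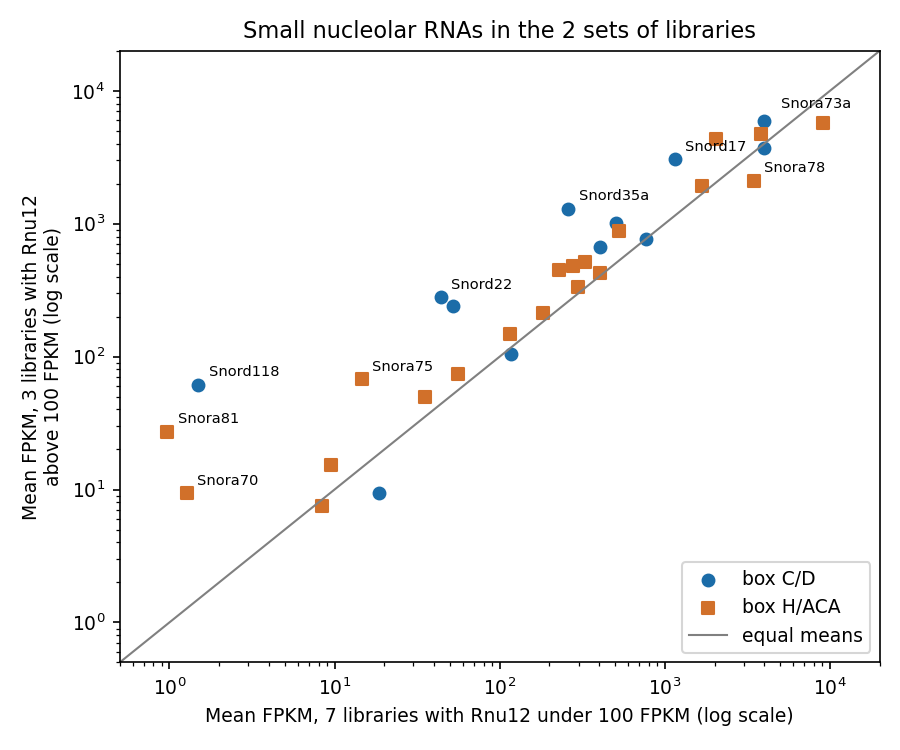
Mean FPKM of each member in the 3 libraries with Rnu12 above 100 FPKM (y axis) against its mean in the other 7 (x axis), on log scales, for box C/D (circles) and box H/ACA (squares). Snord118, Snora81 and Snora70 lie far above the line of equal means but met the rule for members only with the help of the 3 libraries on the y axis, and Snora73a and Snora78 lie below the line.

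The same split was seen in the counts over all 114 symbols. Mutant 4, mutant 5 and control 5 had 53, 54 and 59 of the 114 symbols above 0, against 24 to 36 in the other 7 libraries. Box C/D symbols accounted for 24 to 26 of these in the 3 libraries and 7 to 15 in the others, and box H/ACA symbols for 27 to 33 and 17 to 21. In all, 21 symbols were above 0 only in those 3 libraries, 15 of them box C/D, and 0 only in the other 7. The share of all symbols placed in this way was not counted. Whether this count is particular to small nucleolar RNAs was therefore not tested. At the unlike limit of 1 FPKM, genes of all kinds numbered 13333 to 13629 in the 3 libraries and 13092 to 14229 in the others. Snord32a, in Rpl13a like Snord35a, measured 3256, 5394 and 4194 FPKM in mutant 4, mutant 5 and control 5, and Snord33, also in Rpl13a, 4516, 5346 and 2981 FPKM. Both were listed at 0 in the other 7 libraries, where the host Rpl13a measured 943.0 to 1264 FPKM in mutants and 899.9 to 1443 FPKM in controls. Rpl13a in the 3 libraries was lower, at 709.5, 706.8 and 836.0 FPKM. Box C/D symbols outside the rule summed to 9649, 13541 and 12158 FPKM in mutant 4, mutant 5 and control 5. In each of the other 7 they summed to at most 158.7 FPKM. Symbols above 0 in those 3 libraries alone fall outside the rule by their count of libraries, so this contrast is partly fixed by the rule.

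Host genes gave a readout the rule had not used. In the annotation, 28 members had a host on the same strand and 4 had none, Snora17, Snora43, Snord118 and Snord13. A host exon lay over 14 members, whose reads may be shared with the host, and 14 lay in introns alone. Ribosomal protein genes were the host of 11 members. Of the 24 host genes tested, 0 passed the threshold in either direction and 2 had an unadjusted p under 0.05, Snhg3 and Snhg9, where 0.155% and 8.76% of all tested genes did, so neither share stood above that of all genes. The median difference of the hosts was 0.04, against 0.11 for all tested genes. The values of these 2 hosts follow as descriptions.

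Snhg3, the non-coding host of Snora73a and Snora73b, measured 46.7, 53.6, 37.7, 64.4 and 75.5 FPKM in mutants 1 to 5 and 24.2, 18.1, 15.6, 26.4 and 53.5 FPKM in controls 1 to 5. Control 5 alone overlapped the mutants, and the difference was 1.08 (SE 0.30, limma adjusted p = 0.333). Without control 5 it was 1.35 and passed the threshold (limma adjusted p = 0.0283), as did 80 of 13377 tested genes. Among the libraries with low Rnu12, which also leave out control 5, it was 1.11 (limma adjusted p = 0.0397). In that setting 99 of 13428 tested genes passed. With any other single library left out Snhg3 did not pass (limma adjusted p = 0.294 to 0.649). Nor did it with the library set as a term (limma adjusted p = 0.0578). Snora73a lies over an exon of Snhg3, so reads may be shared between them. Rcc1, the coding gene whose introns hold Snora73a and Snora73b, had a difference of -0.19 (SE 0.14, limma adjusted p = 0.700). Snhg3 and its 2 small nucleolar RNAs thus had differences of 1.08, -0.14 and 0.53.

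Snhg9, the host of Snora78, measured 83.9, 89.4, 43.3, 73.0 and 102.7 FPKM in mutants 1 to 5 and 34.0, 40.3, 34.0, 64.9 and 40.5 FPKM in controls 1 to 5. Mutant 3 and control 4 made the groups overlap, and the difference was 0.85 (SE 0.23, limma adjusted p = 0.320), beside -0.33 for Snora78. It did not pass under any of the alternatives (limma adjusted p = 0.116 to 0.664).

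Proteins of the ribonucleoproteins and their assembly were listed by role with earlier results known. Of 27 such genes tested, 0 passed the threshold in either direction and 2 had an unadjusted p under 0.05, where 0.155% and 8.76% of all tested genes did. The differences were above 0 in 21 of 27 and in 75.7% of all tested genes, with medians of 0.14 and 0.11. Box C/D core genes were at 0.27 for Fbl, the methyltransferase, 0.25 for Nop56, 0.26 for Nop58 and 0.07 for the Snu13 gene, called Nhp2l1 in the files. Box H/ACA core genes were at 0.04 for Dkc1, the pseudouridine synthase, 0.23 for Nop10, 0.13 for Nhp2 and -0.10 for Gar1. The smallest p belonged to Exosc10, a nuclease of the nuclear exosome that trims small nucleolar RNA ends, at 14.9 ± 1.11 FPKM in mutants and 12.2 ± 2.20 FPKM in controls (SD, n = 5 each, limma adjusted p = 0.546). Papd5, a polymerase that adds short A tails to such RNAs, was next, at 6.07 ± 0.728 FPKM in mutants and 4.63 ± 1.51 FPKM in controls (SD, n = 5 each, limma adjusted p = 0.568).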

How the data were processed

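Per the labels' protocols, Trizol extracts were depleted of ribosomal RNA and made into stranded total RNA libraries. The submitters' processing notes name HISAT2 and GRCm38 (mm10). The authors deposited 1 list of FPKM values per library. Program, annotation, use of strand and depth are not given in the sources here, so counting intervals are not given.

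The test was limma 3.58.1 (R 4.3.3) on log2(FPKM + 1), with an intensity trend, robust moderation and genotype alone in the model. It covered 13522 genes that reached 1 FPKM in 5 or more libraries, with Benjamini-Hochberg adjustment over all of them and a threshold of 0.05. Log2 differences are mutant minus control on this scale, which understates changes of low genes. The fit was tested on simulated data. Libraries were split into sets at 100 FPKM of Rnu12. Positions, lengths, hosts and sequences came from GENCODE M21, which may differ from the annotation the authors used. Python 3.11.15, pandas 2.3.3, scipy 1.17.1 and matplotlib 3.10.9 served for tables and plots. Alternatives were other pseudocounts, filters and scalings, the library set, the replicate number as a block, and leaving out each library.

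The named RNAs were the 6 most abundant of each class, the 4 with the smallest p per class and direction, those known for ribosomal RNA cleavage or imprinted clusters, examples at the limit of the rule, and their hosts. Others were named after their values were seen. The members and lists were chosen with earlier results of these data known. The hosts of 2 members and 1 sequence are not reported here.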

Additional observations from a re-analysis of the deposited data

Results flagged for a closer look

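Levels of the members, their sums and Rnu11 were examined in 72 groups of 5 libraries for a library far from the others of its genotype, judged by its gap to the nearest library as a share of the whole range. Chance would give about 1 in 20 if the groups were independent. They share the same libraries, so no comparison with chance is drawn. In all 6 were found, 2 in mutant 5 and 4 in control 5. Of these, Snord35b, Snord118 and Snora81 met the rule for members only with the help of mutant 4, mutant 5 and control 5. The rule therefore favoured high values of these RNAs there. Snord35b was 348.6 FPKM in mutant 5 against 0 to 48.7 FPKM in the other mutants, and Snord89 was 1147 FPKM in mutant 5 against 173.9 to 441.3 FPKM. In control 5, Snord118 was 92.6 FPKM against 0 to 5.91 FPKM in the other controls, Snord22 was 447.6 FPKM against 22.7 to 70.6 FPKM, Snora75 was 57.3 FPKM against 10.01 to 21.0 FPKM, and Snora81 was 53.4 FPKM against 0 to 5.06 FPKM. Control 5 is the only control with high Rnu12, and mutant 5 is 1 of 2 such mutants. The cause of these values was not tested.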

How the results depend on the processing

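No member passed the threshold under any of the 20 alternatives, nor did any gene of the ribonucleoprotein list, and the smallest adjusted p of the 16 members followed by p was 0.190 (limma). The count over all genes, 21, was 2 with no filter on low values, 33 with median-ratio scaling, 35 with quantile normalization, 74 with the library set as a term, 99 in the libraries with low Rnu12 alone and 2 to 80 when single libraries were left out, the highest without control 5. The count of host genes, 0, was 1 in the libraries with low Rnu12 alone, with the replicate block, and without control 5 (0 to 1 over all left-out libraries), and that gene was Snhg3 each time. The replicate numbers were not taken as pairs: correlations of same-numbered libraries' deviations were 0.077, 0.155, 0.236, -0.107 and 0.521, and the replicate block gave 14 calls over all genes.

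The median difference of all tested genes, 0.106, was 0.047 with no filter, 0.0068 with median-ratio scaling, 0.061 with protein-coding scaling, -0.0051 with quantile normalization, 0.163 in the low-Rnu12 libraries and 0.071 to 0.143 with a library left out. Leaving out a library moved the class medians from -0.36 to 0.21 for box C/D and from -0.088 to 0.26 for box H/ACA, and the quotients of summed levels, mutant over control, from 0.965 to 1.28 and from 0.930 to 1.12. Of 309 values of the 16 members, 4 turned sign: Snord13 (-0.15), Snora7a (-0.020) and Snora43 (-0.0021) in the low-Rnu12 libraries, and Snora2b (0.14) without mutant 3 (-1.34 to 0.14 over left-out libraries). The causes were not tested. Rnu11 was 24.7% of control in the low-Rnu12 libraries (exact permutation test, p = 0.0571, which is the least possible with 3 against 4 libraries) and 33.3 to 43.7% with a library left out. Fragment numbers are not known, so how far depth limits the low members cannot be stated beyond the steps in their levels.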
